A study of Mus musculus with 7 samples.

Results

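Rab GTPases are small switch proteins that mark membranes inside the cell. Bound to GTP, each Rab recruits the effectors that bud, move, tether and fuse vesicles at one kind of membrane, and it is turned on by exchange factors (GEFs) and off by GTPase-activating proteins (GAPs). Vps proteins, named from yeast vacuolar protein sorting mutants, build the coats and tethers of the same routes: retromer, HOPS and CORVET, ESCRT, and GARP and EARP. Photoreceptors depend on this machinery, because membrane proteins made in the inner segment are carried continually to the light-sensing outer segment, and their ribbon synapses release vesicles without pause.

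The genes described here are those whose symbol is Rab followed by a digit, begins with Rabgap, Rabgef or Rabep, or is Vps followed by a digit, and whose promoter holds an H3K18La peak annotated to a protein-coding transcript. There were 83 such genes among 9956 protein-coding genes with a promoter peak, the promoter running from 1000 bases before to 500 bases after a transcription start site. Each gene was represented by the promoter peak nearest the start site, or, for the 6 genes with 2 promoter peaks, by the one whose centre lay nearest its transcript's start. No measured level entered the choice among a gene's peaks. A gene entered only where a peak had been called in at least 2 replicates of some age. The 83 comprised 46 Rab GTPases, 14 Rab regulators and effectors, 22 Vps genes and Rab5if, which the rule takes in by its symbol alone. Of 110 RefSeq protein-coding symbols that match the rule, 11 had a promoter peak of another transcript type only (Rab23 among them), 6 had peaks outside promoters only (Vps41 and Vps13b among them) and 10 had no peak (Vps72 among them).

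H3K18La, histone H3 lactylated at lysine 18, was mapped with CUT&Tag: the antibody brings a transposase to marked chromatin, and the DNA it releases there is sequenced. The retinas of C57Bl/6J mice were dissected at postnatal day 4 (P4, 2 libraries), day 10 (P10, 2 libraries) and day 28 (P28, 3 libraries), and dissociated whole-retina cells entered the assay. All libraries carried the same genotype and no treatment, 1 library, P28 replicate 1, came from batch 2, and the labels do not say how many animals a library holds or whether replicates came from separate animals, so p-values measure the spread between these libraries. Levels are RPKM, reads per kilobase of peak scaled to the authors' normalized library size, and changes are differences of log2(RPKM + 1) with the standard error (SE) of a limma fit across all 108253 peaks. A gene was called changed at a Benjamini-Hochberg adjusted p under 0.01.

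Depth set how closely each age could be read. Reads in peaks numbered 295383 to 358971 in the P4 libraries, 199970 to 660740 in the P10 libraries and 1615969 to 8274373 in the P28 libraries. The median Rab or Vps promoter peak held 6 reads over the P4 libraries, 6 over the P10 libraries and 167 over the P28 libraries. At P4, 38 of the 83 genes (45.8%) had 3 reads or fewer in each library, here called the floor, against 39.7% of all genes with a promoter peak. At P10 the floor held 37 genes (44.6%, against 40.8% of all genes) and at P28 none. The P10 libraries were the least alike: the root mean square SD of the members between replicates was 0.78 on the log2 scale at P10, 0.45 at P4 and 0.28 at P28.

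The promoters of Rab27a, Vps37c and Vps8, which are among the largest rises below, and of Rab28, a retinal disease gene, are shown for the 250 bases before the RefSeq start site that lies inside the measured peak. They come from RefSeq on GRCm38.p6, the build of the peaks, read 5′ to 3′ along the gene's strand, and hold no annotated exon. Capitals mark GGGCGG, the GC box bound by SP and KLF factors, or its reverse complement CCGCCC. The stretches are chr9:73044560-73044809 on the + strand for Rab27a, chr5:41708180-41708429 on the - strand for Rab28, chr19:10688485-10688734 on the + strand for Vps37c and chr16:21422868-21423117 on the + strand for Vps8.
Rab27a: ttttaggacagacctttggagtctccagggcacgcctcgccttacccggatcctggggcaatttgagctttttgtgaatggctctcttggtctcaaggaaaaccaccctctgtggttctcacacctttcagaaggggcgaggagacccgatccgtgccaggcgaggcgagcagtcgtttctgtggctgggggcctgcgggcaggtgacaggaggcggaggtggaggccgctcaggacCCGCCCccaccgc
Rab28: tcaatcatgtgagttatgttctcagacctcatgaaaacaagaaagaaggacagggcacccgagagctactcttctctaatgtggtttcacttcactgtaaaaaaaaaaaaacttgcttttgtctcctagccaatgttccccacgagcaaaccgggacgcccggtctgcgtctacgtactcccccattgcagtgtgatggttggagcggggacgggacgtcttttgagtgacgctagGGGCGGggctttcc
Vps37c: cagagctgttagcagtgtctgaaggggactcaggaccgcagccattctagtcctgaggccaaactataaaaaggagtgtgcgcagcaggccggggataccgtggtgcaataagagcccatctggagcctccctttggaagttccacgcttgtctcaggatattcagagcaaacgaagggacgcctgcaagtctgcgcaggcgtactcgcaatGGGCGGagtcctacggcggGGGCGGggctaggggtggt
Vps8: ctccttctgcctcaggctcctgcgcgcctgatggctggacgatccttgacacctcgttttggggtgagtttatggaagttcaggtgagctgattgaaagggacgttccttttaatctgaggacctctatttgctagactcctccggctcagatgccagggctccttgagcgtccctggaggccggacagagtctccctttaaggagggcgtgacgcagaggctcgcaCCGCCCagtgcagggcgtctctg

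All these stretches hold a GC box within the last 38 bases before the start site, and Vps37c holds 2. The box is common at marked promoters. In windows of 300 bases from 250 before to 50 after a RefSeq start inside the peak, GGGCGG on either strand was present in 45 of the 61 Rab and Vps genes that could be matched (73.8%) and in 67.7% of 6937 matched genes with a promoter peak. The E-box CACGTG was in 8 of the 61 (13.1%, against 10.7%). The cyclic AMP element TGACGTCA was in 1 (1.64%, against 3.32%). TAATCC, the core bound by CRX and OTX2, was in 3 (4.92%, against 5.88%). Median GC content was 62.0% in both sets. These are letter matches only.

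Promoter H3K18La of most Rab and Vps genes was higher at P28 than at P4, with a median change near that of all marked promoters. The P28 libraries were the deepest, so a promoter could enter through a peak called at P28 alone. This selection applies to all marked promoters. Its part in the rise, and in the counts of genes separate or highest at P28, was not tested. At P28 against P4, 31 of the 83 genes rose and none fell (37.3% called), where 33.1% of all genes with a promoter peak were called and 32.8% were called higher. A single gene, Vps50, was lower at an unadjusted p under 0.05 by limma, and voom, limma's test on the reads recovered from the RPKM, called none lower. The median change was 1.36 on the log2 scale for the 83 genes, 1.34 for all genes with a promoter peak and 0.68 for all peaks. Every P28 library was above every P4 library for 66 genes (79.3% of all genes did so), and below for 4 (4.66% of all genes). Among genes ranked by this change, 8 of the 83 were in the top 10%. With P4 peaks at the floor set to 3 reads, the medians were 1.08 for the 83 genes and 1.04 for all genes. The scaling of the libraries matters to the size of the rise. For other settings the share of all genes called is not given here, so their counts describe the settings only. When libraries were scaled to their reads in peaks, which made up 16.3 and 17.6% of the normalized size at P4 and 36.1 to 57.1% at the later ages, 6 genes were called higher and 2 lower, and the medians were 0.35 for the 83 genes and 0.30 for all genes. The number called also rests on the small number of libraries: it was 6 and 8 without P4 replicate 1 or 2, 13 to 14 without 1 of the P28 libraries, and 46 to 47 without 1 of the P10 libraries. Rab27a, Rab4a, Rab3a, Rab44, Vps26c and Vps37c were called whichever library was left out, and the other 25 lost the call at least once. Of the called genes under the naming rule, Rab10, Rab11b, Rab28, Rab6a, Rabepk, Vps29, Vps4a and Vps53 kept it least often, losing it under 7 to 10 of 17 other settings.

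**Figure D1:**
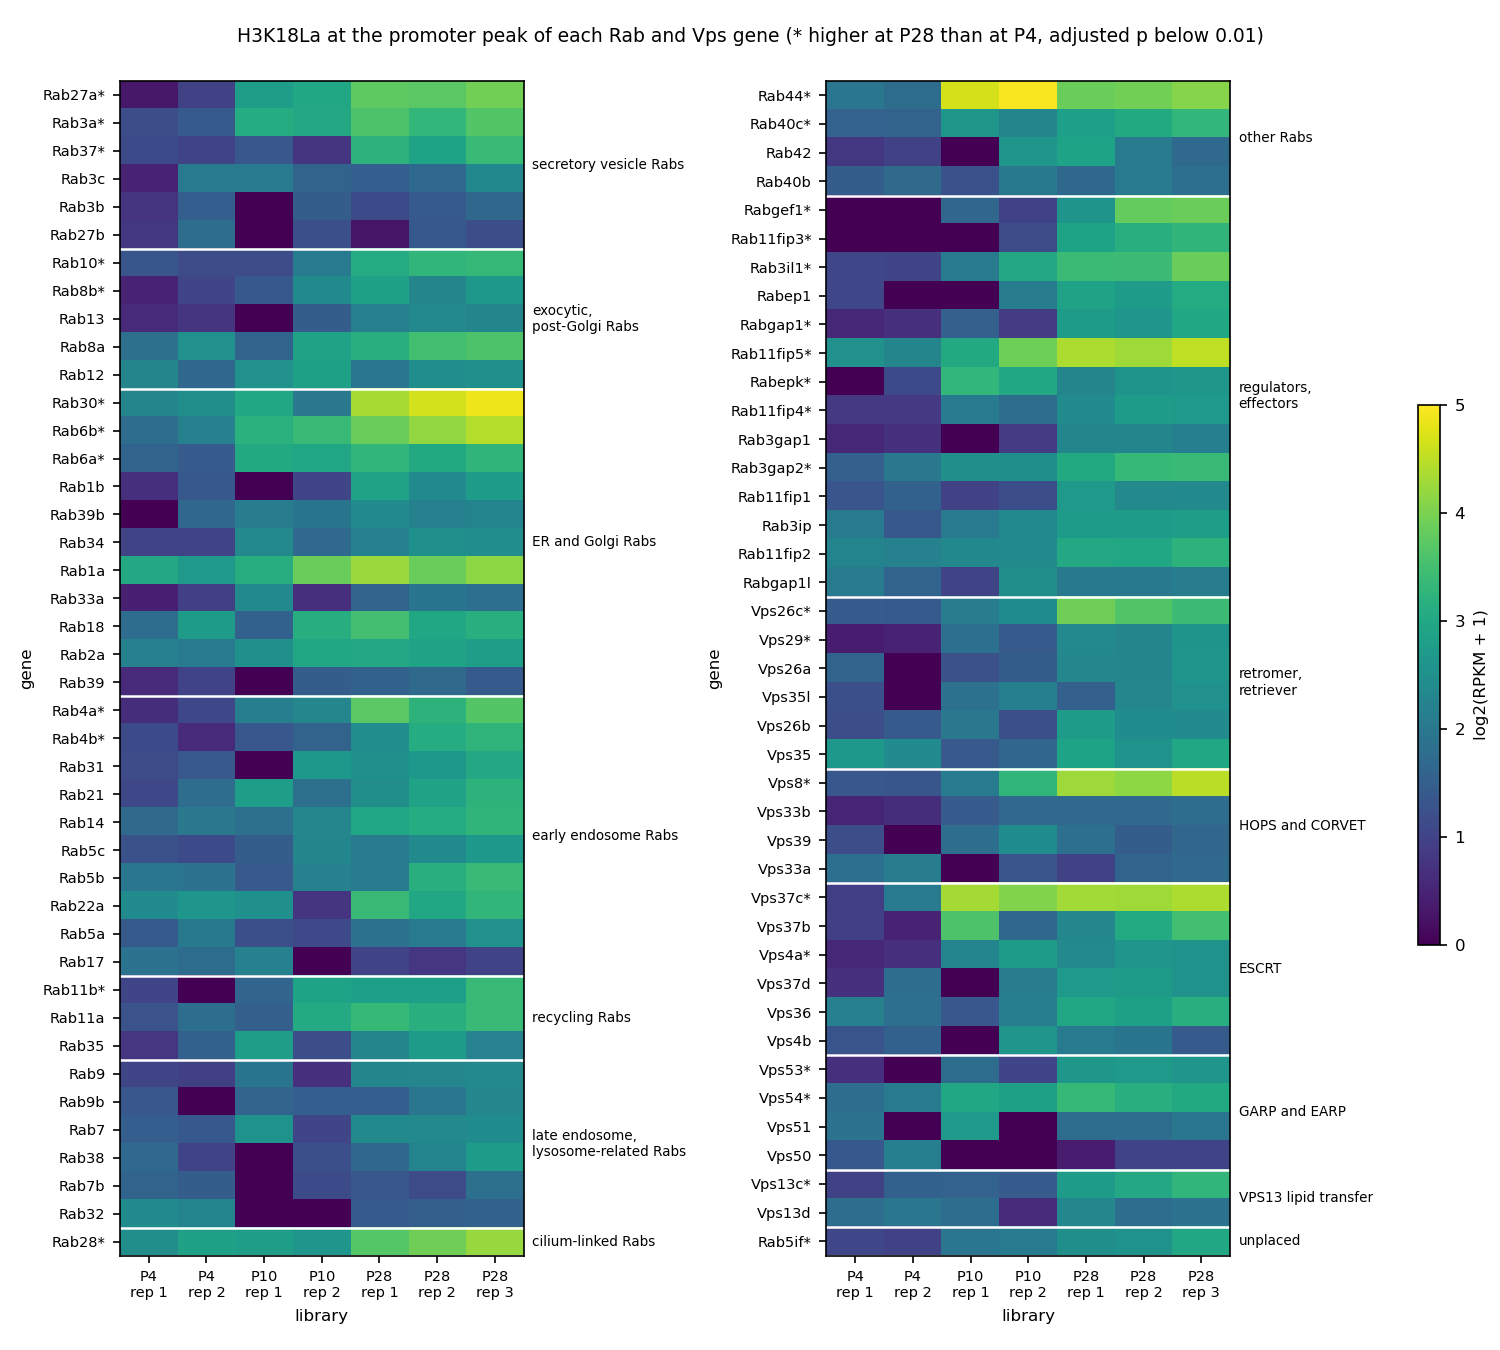
Promoter H3K18La of the 83 Rab and Vps genes in each of the 7 libraries, as log2(RPKM + 1) by colour, grouped by role and ordered within a role by the P28 minus P4 difference; an asterisk marks the 31 genes called higher at P28 than at P4. Most rows brighten from the P4 libraries to the P28 libraries, and the P10 libraries differ most from each other.

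H3K18La was measured in the whole retina, so more cells carrying the mark and more mark per cell cannot be told apart. Of 6 rod markers listed, 4 had a promoter peak, and these were all called higher at P28 and at P10 than at P4, with summed levels of 7.41 to 8.28 RPKM at P4, 73.9 to 86.0 RPKM at P10 and 53.9 to 78.7 RPKM at P28. The 2 pigment epithelium genes with a promoter peak, Best1 and Mitf, summed to 3.1 to 3.45 RPKM at P4, had no read at P10 and summed to 1.03 to 1.5 RPKM at P28. Both were called lower at P10 than at P4 (Best1 -1.22, adjusted p = 0.00594, Mitf -1.55, adjusted p = 0.00547), from 5 and 4 reads over the P4 libraries. At the P10 depth, 3 reads in either library would stand above their P4 levels. Over all marker lists, 26 of 44 genes had a promoter peak and 7 were called higher at P28 than at P4, the other 3 being the cone gene Arr3 (1.72, adjusted p = 0.0085), the bipolar gene Otx2 (3.20, adjusted p = 0.000722) and the Mueller glia gene Glul (1.89, adjusted p = 0.00732). The lowest change was that of the horizontal cell gene Onecut1 (-1.14, adjusted p = 0.0387). The part of cell makeup in the changes below was not tested.

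Secretory vesicle Rabs, which dock vesicles for regulated release, included 6 genes with a peak, of which 3 rose and none fell. Of all genes with a promoter peak, 32.8% were called higher and 0.281% lower. Rab27a, which tethers secretory vesicles and melanosomes to actin and plasma membrane through its effectors, had 0.25 and 0.987 RPKM at P4, 5.97 and 6.95 RPKM at P10, and 12.6, 12.3 and 14.4 RPKM at P28. The 3 ages did not overlap, and Rab27a rose by P28 (log2 change 3.16, SE 0.33, adjusted p = 0.0002) and already by P10 (2.24, SE 0.36, adjusted p = 0.00208). It was one of 2 genes, with Rab4a, called under all 16 other settings fitted. Rab3a, the principal Rab of synaptic vesicles, had 1.26 and 1.65 RPKM at P4, 7.51 and 7.10 RPKM at P10, and 11.1, 8.99 and 11.7 RPKM at P28. Its change was 2.24 by P28 (SE 0.30, adjusted p = 0.000548) and 1.76 by P10 (SE 0.33, adjusted p = 0.00385). Rab37, a Rab of secretory granules named after its values were seen, had 1.17 and 1.03 RPKM at P4, 1.55 and 0.678 RPKM at P10, and 8.35, 6.45 and 9.36 RPKM at P28 (log2 change 2.10 from P4 to P28, SE 0.39, adjusted p = 0.00247). Its P10 level rests on 2 reads, and P28 against P10 was not called (2.12, SE 0.39, adjusted p = 0.0136). At P28 against P4, Rab37 was called under 8 of 16 other settings. Rab27b, the close relative of Rab27a, was low throughout, with 0.766 and 2.51 RPKM at P4, 0 and 1.33 RPKM at P10, and 0.221, 1.61 and 1.31 RPKM at P28. Its ages overlapped and it was not called (-0.36, SE 0.53, adjusted p = 0.599).

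**Figure D2:**
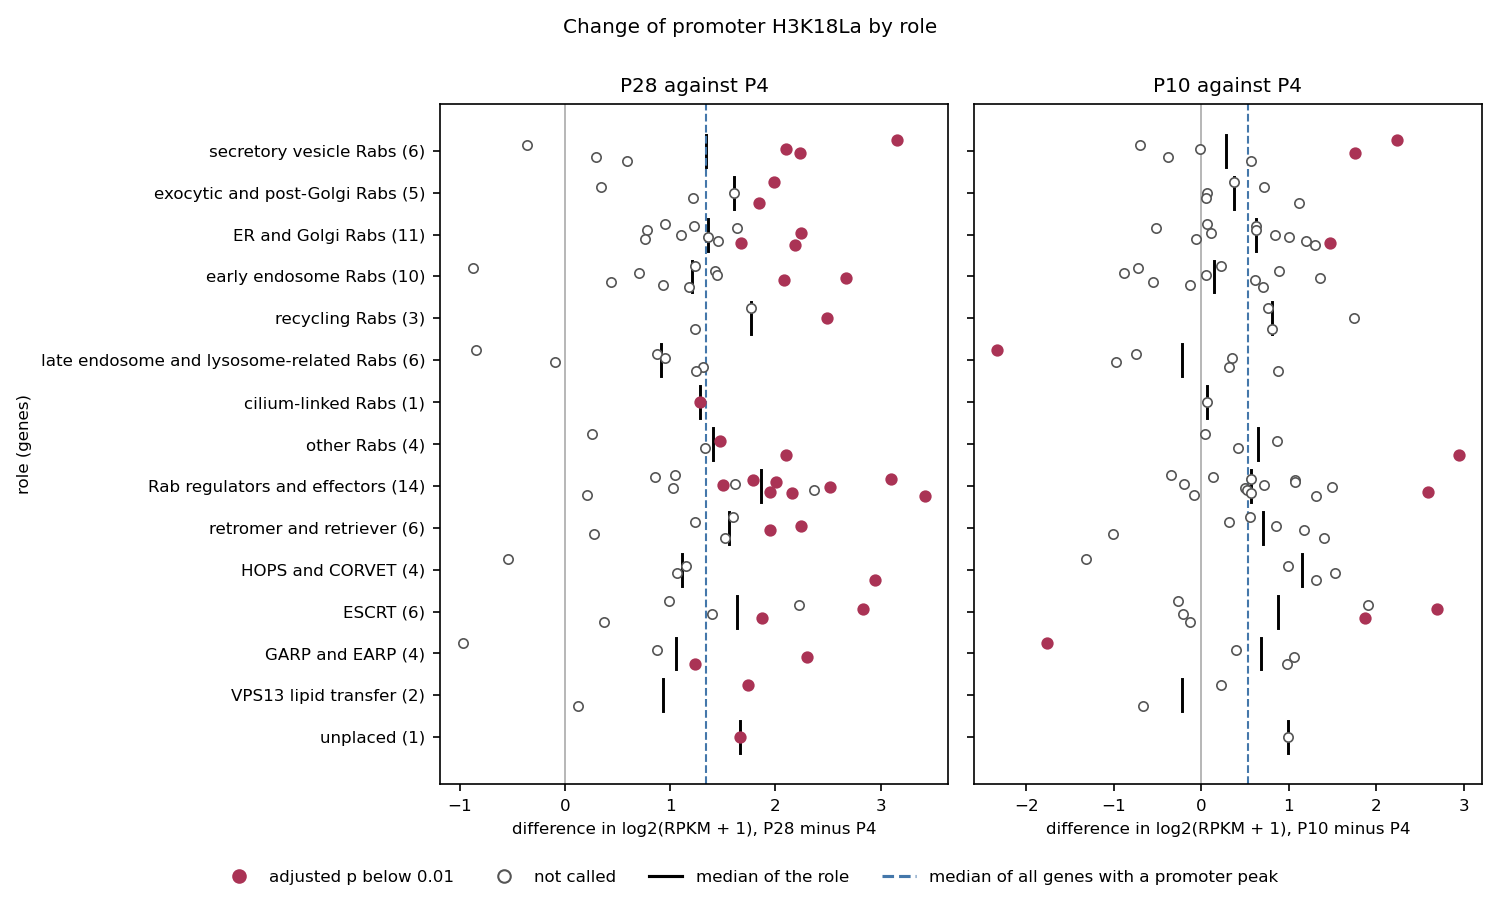
Difference in log2(RPKM + 1) for each of the 83 genes by role, P28 minus P4 on the left and P10 minus P4 on the right; filled points passed the test, black bars are role medians, and the dashed line is the median of all genes with a promoter peak (1.34 and 0.54). Role medians lie around the dashed line, and the 2 genes called lower, both at P10, are Rab32 and Vps50.

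Exocytic and post-Golgi Rabs carry cargo from the Golgi to the plasma membrane and the cilium. Of the 5 with a peak 2 rose, beside 32.8% of all genes called higher. Rab10 had 1.54 and 1.22 RPKM at P4, 1.23 and 3.21 RPKM at P10, and 7.49, 8.81 and 9.03 RPKM at P28 (log2 change 1.99, SE 0.39, adjusted p = 0.00315). P10 replicate 1 lay at the P4 level. Rab8a, which delivers membrane to the cilium and so to the outer segment, had 2.6 and 4.78 RPKM at P4, 2.07 and 6.32 RPKM at P10, and 7.81, 10.1 and 11.1 RPKM at P28. All P28 libraries were above the P4 libraries, but the difference did not pass the threshold (1.21, SE 0.42, adjusted p = 0.0426).

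ER and Golgi Rabs numbered 11 genes. All were higher at P28 in every library, which was the pattern of most genes. The test was passed by 3, beside 32.8% of all genes called higher. Rab30, a Golgi Rab, had the highest P28 level of the 83 genes. It had 3.87 and 4.52 RPKM at P4, 6.84 and 2.99 RPKM at P10, and 19.4, 24.2 and 28.1 RPKM at P28 (log2 change 2.25, SE 0.34, adjusted p = 0.000997). The P10 and P4 libraries overlapped (0.11, SE 0.38, adjusted p = 0.859). Rab30's other promoter peak had 2.13 and 1.29 RPKM at P4, 3.91 and 12.5 RPKM at P10, and 15.8, 19.1 and 22.7 RPKM at P28. That peak was called at P28 (2.90, SE 0.43, adjusted p = 0.00079) and not at P10 (1.60, SE 0.47, adjusted p = 0.0234). Rab6b, the neuronal form of the Golgi Rab Rab6, had 2.47 and 3.51 RPKM at P4, 8.17 and 9.27 RPKM at P10, and 13.8, 17.2 and 20.7 RPKM at P28 (2.19, SE 0.30, adjusted p = 0.000562). Rab6a, the widely expressed form, had 2.07 and 1.70 RPKM at P4, 7.20 and 6.74 RPKM at P10, and 8.82, 7.21 and 8.66 RPKM at P28, and was called at both later ages (1.68 by P28, SE 0.30, adjusted p = 0.00219). Its P28 call was lost under 9 of 17 other settings, all 3 scalings among them. Its peak also covers the start site of Mrpl48, as 7 of the 83 peaks cover that of another protein-coding gene (8.6% of all genes' peaks do). Rab1a, which tethers ER-derived vesicles at the Golgi, had 7.10 and 5.51 RPKM at P4 and 13.5 to 18.1 RPKM at P28 (1.22, SE 0.31, adjusted p = 0.0115). Rab2a, which acts in the same step, had 3.57 and 3.12 RPKM at P4 and 6.02 to 7.09 RPKM at P28 (0.78, SE 0.32, adjusted p = 0.0698).

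Early endosome and recycling Rabs receive endocytosed cargo and return it to the surface. Of these, 2 of 10 and 1 of 3 rose, beside 32.8% of all genes called higher. Rab4a, the fast recycling Rab, had 0.571 and 1.13 RPKM at P4, 3.4 and 3.96 RPKM at P10, and 12.2, 8.46 and 11.6 RPKM at P28 (log2 change 2.67, SE 0.34, adjusted p = 0.000438). The 3 ages did not overlap. Rab11b, a recycling endosome Rab, had 1.06 and 0 RPKM at P4, 2.10 and 6.43 RPKM at P10, and 6.12, 6.09 and 9.46 RPKM at P28 (2.49, SE 0.50, adjusted p = 0.00355). Only 2 reads stand behind its P4 level, and the ratio of reads per normalized library size was 11.4 with an exact 95% interval of 3.1 to 94.9, which covers counting error only. Rab11a, which acts with Rab8a in transport to the cilium, had 1.41 and 2.48 RPKM at P4, 1.87 and 7.36 RPKM at P10, and 9.25, 7.84 and 9.5 RPKM at P28. The P28 libraries were well above the P4 libraries, yet it did not pass (1.76, SE 0.46, adjusted p = 0.0125). Rab5a and Rab5b, which organise early endosome fusion, were not called. Rab5a overlapped between ages, with 1.66 and 3.06 RPKM at P4 and 2.69, 3.15 and 4.80 RPKM at P28 (0.44, SE 0.42, adjusted p = 0.414). Rab5b had 2.91 and 2.73 RPKM at P4 and 3.12, 7.92 and 9.47 RPKM at P28, the lowest of which is the library of batch 2 (0.93, SE 0.47, adjusted p = 0.131). Rab17, an epithelial Rab, was lower in all P28 libraries than in both P4 libraries, at 0.736 to 1.05 against 2.38 and 2.72 RPKM. It did not pass the test (-0.88, SE 0.61, adjusted p = 0.261). Its P4 level was at the floor, with 3 and 2 reads. The P28 to P4 read ratio was 0.330, with an exact 95% interval of 0.106 to 1.21.

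Late endosome and lysosome-related Rabs direct fusion with lysosomes and the making of pigment granules, and none of the 6 was called at P28 against P4 by limma, with 2 higher at an unadjusted p under 0.05 and 1 called higher by voom. Of all genes with a promoter peak, 32.8% were called higher, and 6602 of 9956 had an unadjusted p under 0.05 in either direction. The median change of the 6 was 0.91, below the median of all genes given above. The difference between this class and the others was not tested. Rab7, the principal late endosome Rab, had 1.82 and 1.59 RPKM at P4, 4.82 and 1.05 RPKM at P10, and 4.20, 4.10 and 4.38 RPKM at P28 (0.95, SE 0.47, adjusted p = 0.127). Rab32, which with Rab38 delivers pigment enzymes to melanosomes, was called lower at P10 than at P4, with 4.34 and 3.80 RPKM at P4 and no read in either P10 library (-2.34, SE 0.45, adjusted p = 0.00401). At the P10 depth a count of 0 allows a level of up to 8.62 RPKM in replicate 1 and 3.77 RPKM in replicate 2 (3 reads), so only replicate 2 was deep enough to fall below the P4 levels. Rab32 was at 1.67 to 1.93 RPKM at P28, below both P4 libraries (-0.85, SE 0.41, adjusted p = 0.117). The pigment epithelium genes Best1 and Mitf were called lower in the same comparison, with the depth limit given above, and their part in the Rab32 result was not tested.

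Rab28, which is needed for shedding of cone outer segment discs and is mutated in a human cone-rod dystrophy, was the only Rab of the 83 grouped as cilium-linked. It had 4.51 and 6.25 RPKM at P4, 5.97 and 5.22 RPKM at P10, and 11.9, 14.1 and 17.6 RPKM at P28. The P4 and P10 libraries overlapped, and the P28 libraries stood above both (log2 change 1.28, SE 0.30, adjusted p = 0.00782). The change is close to the median of all promoters, and it turned to -0.11 with libraries scaled to reads in peaks and to -0.29 with quantile normalization.

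The remaining Rabs numbered 4, and 2 rose, beside 32.8% of all genes called higher. Rab44, a large Rab with an EF-hand domain studied mainly in blood and bone cells, differed in its course. It had 2.92 and 2.40 RPKM at P4, 24.7 and 29.8 RPKM at P10, and 13.7, 14.2 and 16.1 RPKM at P28. Both P10 libraries were above all P28 libraries, and the P10 level rested on 64 reads, the most of the 83 genes at that age. The rise by P10 was the largest of the set (2.94, SE 0.29, adjusted p = 0.000427), P28 was also above P4 (2.10, SE 0.26, adjusted p = 0.000379), and the later decline did not pass the threshold (-0.85, SE 0.26, adjusted p = 0.0586).

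**Figure D3:**
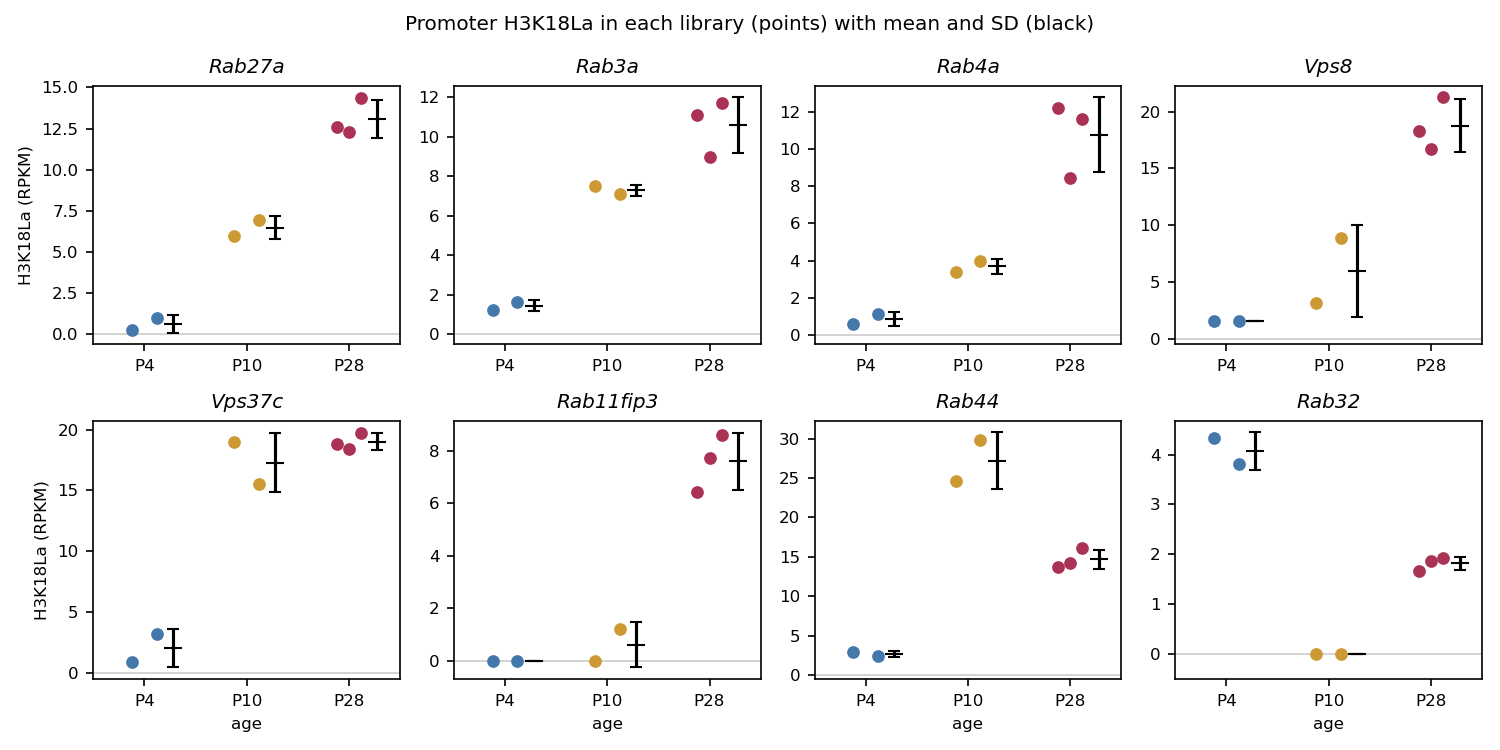
Promoter H3K18La in RPKM in each library for 8 genes, with the mean and SD of each age in black. Rab27a, Rab3a and Rab4a climb through P10, Vps37c is at its P28 level by P10, Rab11fip3 has no read at P4 and 2 reads at P10, Rab44 is highest at P10, and Rab32 has no read at P10.

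Rab regulators and effectors decide when and where a Rab acts, and 8 of 14 rose by P28, with a median change of 1.86, beside 32.8% of all genes called higher and their median of 1.34. Whether this share differs from that of the Rab GTPases themselves (14 of 46, median 1.26) was not tested. Rab11fip3, a Rab11 effector that also binds Arf GTPases, had no read in either P4 library, 0 and 1.21 RPKM at P10, and 6.44, 7.74 and 8.62 RPKM at P28. Against the 3 reads per library that a count of 0 allows, the P28 level was at least 6.28-fold higher (adjusted p = 0.000973 by limma). The gene's other promoter peak had 0.460 and 1.21 RPKM at P4 and 3.98, 4.44 and 5.30 RPKM at P28. That change did not pass the test (1.63, SE 0.48, adjusted p = 0.0218), and the difference between the peaks was not tested. Rabgef1, the Rab5 exchange factor also called Rabex-5, had no P4 read, 2.16 and 0.943 RPKM at P10, and 5.02, 13.0 and 13.6 RPKM at P28, at least 5.6-fold above the same limit (adjusted p = 0.000731). The low P28 value is that of the batch 2 library. Rabgef1's other promoter peak had 0.543 and 0 RPKM at P4 and 2.51, 2.94 and 3.51 RPKM at P28. That peak did not pass the test (1.67, SE 0.44, adjusted p = 0.0128). Rab3il1, an exchange factor for Rab8, had 1.09 and 1.07 RPKM at P4, 3.24 and 7.08 RPKM at P10, and 9.58, 9.83 and 13.8 RPKM at P28 (2.52, SE 0.37, adjusted p = 0.000836). Rabepk, a Rab9 effector, had 0 and 1.17 RPKM at P4, 8.86 and 6.96 RPKM at P10, and 3.86, 5.01 and 5.25 RPKM at P28. As with Rab44, both P10 libraries were above all P28 libraries. It was called at P10 (2.59, SE 0.46, adjusted p = 0.00302) and at P28 (1.95, SE 0.42, adjusted p = 0.00537). Its P4 level rests on 2 reads (P28 to P4 read ratio 9.66, exact 95% interval 2.62 to 80.7), and the P28 call was lost under 9 of 17 other settings, all 3 scalings among them. Rabep1, or rabaptin-5, the partner of Rabgef1, had 1.1 and 0 RPKM at P4, 0 and 3.34 RPKM at P10, and 6.36, 5.70 and 7.43 RPKM at P28, with an adjusted p of 0.0137. Rab3gap1, the catalytic subunit of the Rab3 GAP that is mutated in Warburg Micro syndrome, had 0.481 and 0.631 RPKM at P4, 0 and 0.834 RPKM at P10, and 3.89, 3.90 and 3.47 RPKM at P28 (adjusted p = 0.0162), with 2 reads behind the P4 level. Rabgap1l, a GAP, was flat at the peak that represents it (0.21, SE 0.48, adjusted p = 0.738), while its other promoter peak, over another start site, rose from 2.02 and 1.77 RPKM at P4 to 11.9, 12 and 12.2 RPKM at P28 (2.17, SE 0.29, adjusted p = 0.000498).

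Retromer and retriever return receptors from endosomes, and 2 of their 6 genes rose, beside 32.8% of all genes called higher. Vps35, the core of retromer, was not called: it had 5.37 and 4.34 RPKM at P4, 1.64 and 2.15 RPKM at P10, and 6.44, 4.92 and 6.91 RPKM at P28 (0.27, SE 0.34, adjusted p = 0.532). Its P10 libraries were below all the others, but they were at the floor, with 1 and 3 reads. P10 against P4 was not called by limma (-1.02, SE 0.37, adjusted p = 0.0566). The Vps35 peak also covers the start site of Orc6. Vps26a, the retromer partner of Vps35, had 2.05 and 0 RPKM at P4 and 3.95, 3.84 and 5.19 RPKM at P28 (adjusted p = 0.0325). Vps29, which sits in both complexes, had 0.321 and 0.422 RPKM at P4, 2.55 and 1.67 RPKM at P10, and 4.08, 3.82 and 5.00 RPKM at P28 (1.95, SE 0.41, adjusted p = 0.00464). Its P4 level rests on 2 reads, the read ratio being 11.3 (exact 95% interval 3.08 to 94.3), and its peak takes in the start of Rad9b. Vps26c of retriever, named after its values were seen, had 1.69 and 1.67 RPKM at P4, 3.37 and 4.41 RPKM at P10, and 14.2, 11.5 and 9.82 RPKM at P28 (2.25, SE 0.32, adjusted p = 0.000696).

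HOPS and CORVET tether late and early endosomes. Of the 4 genes grouped with them 1 rose, beside 32.8% of all genes called higher. The 4 include Vps33b, grouped here as a relative of Vps33a and not as an established subunit. Vps33b, named after its values were seen, was not called at P28 against P4 (1.15, SE 0.41, adjusted p = 0.0460). Vps8, which belongs to CORVET and binds Rab5, had 1.57 and 1.54 RPKM at P4, 3.11 and 8.83 RPKM at P10, and 18.3, 16.7 and 21.3 RPKM at P28 (log2 change 2.95, SE 0.38, adjusted p = 0.000453). The 3 ages did not overlap, and this was the largest rise among the Vps genes. Vps33a, a subunit of both tethers, was lower in all P28 libraries (0.983 to 2.26 RPKM) than in both P4 libraries (2.55 and 3.35 RPKM) without passing the test (-0.54, SE 0.52, adjusted p = 0.415). Vps39 of HOPS had 1.26 and 0 RPKM at P4, 2.51 and 4.38 RPKM at P10, and 1.79 to 2.55 RPKM at P28, with no call at either age.

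ESCRT proteins sort ubiquitinated receptors into multivesicular bodies, and 2 of 6 genes rose, beside 32.8% of all genes called higher. Vps37c, an ESCRT-I subunit, had 0.896 and 3.14 RPKM at P4, 19.0 and 15.5 RPKM at P10, and 18.8, 18.4 and 19.8 RPKM at P28. The P10 and P28 libraries overlapped and all stood above P4 (2.70 by P10, SE 0.38, adjusted p = 0.00129; 2.83 by P28, SE 0.35, adjusted p = 0.000358). Vps4a, the ATPase that takes ESCRT-III apart, had 0.473 and 0.621 RPKM at P4, 3.76 and 5.74 RPKM at P10, and 4.10, 5.12 and 4.85 RPKM at P28. It was likewise called at both ages (1.87 and 1.88), from 2 reads at P4 (P28 to P4 read ratio 9.14, exact 95% interval 2.48 to 76.3).

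GARP and EARP tether vesicles returning to the Golgi and to recycling endosomes. Of their 4 genes 2 rose, beside 32.8% of all genes called higher. Vps53, shared by both complexes, had 0.607 and 0 RPKM at P4, 2.41 and 1.05 RPKM at P10, and 5.25, 5.42 and 5.07 RPKM at P28 (2.30, SE 0.44, adjusted p = 0.00299). A single P4 read stands behind this (read ratio 15.4, exact 95% interval 2.71 to 615), and the peak also covers the start of Fam57a. Vps50, the subunit particular to EARP, was called lower at P10 than at P4, with 1.59 and 3.47 RPKM at P4 and no read at P10 (-1.77, SE 0.41, adjusted p = 0.00888), and was at 0.305, 1.00 and 1.01 RPKM at P28 (-0.97, SE 0.37, adjusted p = 0.0603). At P10, 3 reads would have given 6.30 and 2.75 RPKM, so neither P10 library was deep enough to show a level below the lower P4 value. The peak also covers the start of Hepacam2. Of the 2 VPS13 lipid transfer genes with a peak, Vps13c rose (1.74, SE 0.38, adjusted p = 0.00554) and Vps13d was not called (0.12, SE 0.46, adjusted p = 0.848), both named after their values were seen. Vps13c was called under 6 of 16 other settings, and under none of the 3 scalings.

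At P10 against P4, 7 of the 83 genes were called higher and 2 lower, the latter Rab32 and Vps50 with no read at P10 and the depth limits given above, against 11.1% of all genes called higher and 0.924% called lower (12% in all). Both P10 libraries were above both P4 libraries for 38 of the 83 (45.3% of all genes) and below for 8 (9.2% of all genes). The median change was 0.57, beside 0.54 for all genes, and turned to -0.34 with libraries scaled to reads in peaks. The count of 9 fell to 2 and 4 without P4 replicate 1 or 2, and to 5, 3 and 4 without P28 replicate 1, 2 or 3, which lend the fit their spread. The 7 were Rab27a, Rab3a, Rab6a, Rab44, Rabepk, Vps37c and Vps4a, and all 7 were also called at P28. The other 24 genes called at P28 were not called at P10. At P28 against P10 no gene passed (0% of all genes did), every P28 library was above both P10 libraries for 49 (55% of all genes), and below for 3 (5.74% of all genes). By limma 36 of the 83 had an unadjusted p under 0.05, beside 3975 of all 9956 genes, and voom called 4. Without P10 replicate 1 there were 3 calls and without P10 replicate 2 there were 18, each resting on a single P10 library that is taken to vary like the others. The median change was 0.80, beside 0.75 for all genes. The lowest changes were those of Rab44, Rabepk (-0.64, adjusted p = 0.311) and Vps39 (-0.46, adjusted p = 0.535). The largest were Rab11fip3 (2.52, adjusted p = 0.0144), Rab1b (2.15, adjusted p = 0.0234) and Rab30 (2.14, adjusted p = 0.0113). Rab11fip3 and Rab1b were at the floor at P10, with 2 reads and 1 read over both libraries, so the size of their differences depends on the pseudocount. Rab1b, which acts beside Rab1a, had 0.613 and 1.61 RPKM at P4, 0 and 1.06 RPKM at P10, and 6.37, 4.15 and 5.83 RPKM at P28. By mean RPKM, 70 of the 83 genes were highest at P28, 6 at P4 and 7 at P10 (8.43%, where 14.8% of all genes were highest at P10). Over the 3 ages together, 25 genes were called by the moderated F-test (28.8% of all genes were), a number that was 2 and 3 without P4 replicate 1 or 2, 9, 6 and 8 without P28 replicate 1, 2 or 3, and 45 and 50 without P10 replicate 1 or 2.

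Close relatives were also compared with each other within each library. At levels near 1 RPKM such differences depend on the pseudocount and on the scaling, and the pairs were not recomputed under other scalings. For each of 38 pairs of members with the same symbol stem, from 21 stems, the log2 difference between the pair was taken in each library and compared between P28 and P4. With 3 libraries against 2 the two-sided exact permutation test cannot give a p under 0.2, and no pair was below 0.345 after adjustment over the 38, so these are differences to describe, and the pairs named were chosen after their values were seen. The widest change was between Rab27a and Rab27b. Rab27a was below Rab27b by 0.66 ± 0.23 (SD, n = 2) at P4 on the log2 scale and above it by 2.85 ± 0.57 (SD, n = 3) at P28 (exact p = 0.2, the smallest possible). The P4 order rests on 4 reads of Rab27a, which was at the floor, and 7 of Rab27b. Rab3a and Rab3b, both synaptic vesicle Rabs, were level at P4 (0.17 ± 0.35, SD, n = 2) and 2.12 ± 0.30 apart (SD, n = 3) at P28 (exact p = 0.2). Rab4a and Rab4b were both called higher at P28, and their difference changed by 0.59 (exact p = 0.6). Rab6a and Rab6b were also both called, and their difference changed by -0.51 (exact p = 0.4).

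**Figure D4:**
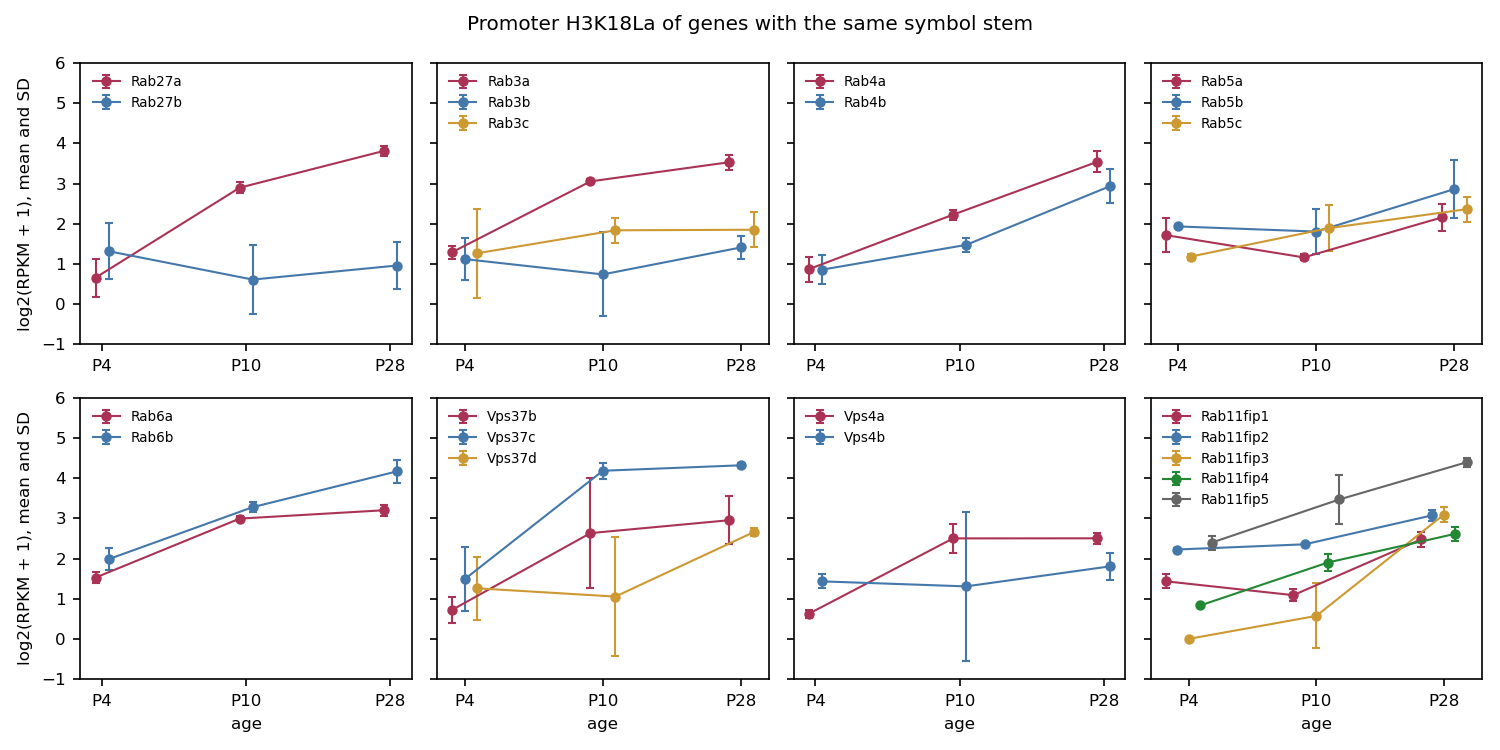
Mean log2(RPKM + 1) with SD at each age for members that share a symbol stem, in 8 families. Rab27a separates from Rab27b, and Rab3a from Rab3b and Rab3c, while Rab4a and Rab4b both climb; error bars at P10 are wide for several genes.

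The mark also lay outside promoters. The 45 members with such peaks had 270 of them, 197 in introns, and 65 rose and 1 fell by P28 (24.1% and 0.370%, where 16.6% of all peaks outside promoters were called higher and 4.84% lower). Their median change was 1.25 (1.32 in introns and 1.02 to 1.07 elsewhere), beside 0.54 for all peaks outside promoters. The sets were not matched for position or for a marked promoter, and peaks of 1 gene are not independent. Rabgap1l alone had 44, of which 13 rose, Rab30 had 8 of 14, Rab27a and Rabgef1 had 4 of 7 and 4 of 6, Vps37c had 4 of 4 and Vps8 had 4 of 36. Of the 25 genes with a peak outside promoters that rose, 16 also had a promoter peak called higher, as did 3 of the 20 with none that rose, beside 32.8% of all genes with a promoter peak. Whether these shares differ was not tested. By P10, 38 of these peaks had risen and 5 had fallen, against 11.1% and 8.37% of all peaks outside promoters. None passed at P28 against P10 (0.0022% of all peaks outside promoters did). By limma 101 of the 270 had an unadjusted p under 0.05, and voom called 21. Of all 108253 peaks, promoters included, 35202 had an unadjusted p under 0.05.

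In Rab28 and Vps37c an intron peak carried more of the mark than the promoter at P10. Other members showed this too, among them Rab11fip4, Rab27a and Rabgap1l. The Rab28 peak, chr5:41684922-41685634, lies 22523 bases inside the gene and had 0.637 and 1.67 RPKM at P4, 12.7 and 17.7 RPKM at P10, and 12.1, 17.2 and 21.1 RPKM at P28. It was called by P10 (2.93, SE 0.38, adjusted p = 0.00100), when the Rab28 promoter had changed by 0.06 (SE 0.33, adjusted p = 0.918). The Vps37c peak, chr19:10700817-10702365, lies 12082 bases inside the gene and had 1.76 and 2.70 RPKM at P4, 44.3 and 39.2 RPKM at P10, and 40.0, 46.7 and 45.3 RPKM at P28 (3.74 by P10, SE 0.27, adjusted p = 0.00038). Of 9 Rab28 peaks outside promoters 1 rose by P28 (median change 0.24 over the 9), and of 4 in Vps37c all 4 rose. The peaks described here were chosen after their values were seen, and the difference between intron and promoter was not tested. Their central 200 bases are given from RefSeq GRCm38.p6 on the + strand, chr5:41685178-41685377 and chr19:10701491-10701690. Capitals mark TAATCC, which the Rab28 stretch holds once. On either strand it is in 9.0% of the central 200 bases of 45481 intron peaks, and the Vps37c stretch holds none of the 4 motifs searched.
Rab28 intron: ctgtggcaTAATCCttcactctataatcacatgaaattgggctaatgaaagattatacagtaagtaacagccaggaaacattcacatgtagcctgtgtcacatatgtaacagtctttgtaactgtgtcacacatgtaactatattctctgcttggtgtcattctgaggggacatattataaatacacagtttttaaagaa
Vps37c intron: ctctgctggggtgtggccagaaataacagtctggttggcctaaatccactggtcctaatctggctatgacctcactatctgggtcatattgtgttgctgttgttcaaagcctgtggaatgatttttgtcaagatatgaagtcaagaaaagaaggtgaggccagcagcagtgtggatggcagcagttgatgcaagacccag

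Genes that act with the Rabs were measured in the same way. From lists of Rab prenylation, GEF, GAP, effector, retromer-associated, ESCRT, class III PI3 kinase and exocyst genes, 90 of 127 had a promoter peak, and 29 of them rose and none fell by P28 (median 1.48), beside 32.8% of all genes called higher. At an unadjusted p under 0.05, 1 of the 90 was lower by limma, and voom called 1 lower. Of the GEFs 8 of 21 rose, of the GAPs 8 of 17, of the prenylation and GDI genes 3 of 7, of the effectors 3 of 18, of the other ESCRT subunits 4 of 11, of the retromer partners and WASH subunits 2 of 10, of the class III kinase genes 1 of 3 and of the exocyst genes 0 of 3 (none at an unadjusted p under 0.05 by limma and none by voom). By P10, 13 of the 90 had risen, beside 11.1% of all genes called higher. Among them, chosen after their values were seen, Madd, an exchange factor for Rab3 and Rab27, rose by 2.81 (SE 0.28, adjusted p = 0.000162) from a mean of 2.84 RPKM at P4 to 26.1 RPKM at P28.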

How the data were processed

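H3K18La CUT&Tag was analysed in 7 retinal libraries. According to the methods and labels, the authors aligned reads to GRCm38 with nf-core/cutandrun, called MACS peaks (q beyond 1e-06 in at least 2 replicates of an age), merged them over ages, annotated them with ChIPseeker 1.34.1 and counted reads with csaw, normalized on windows of 10000 bases. The deposited values are RPKM per peak. The authors' own comparison columns (fold change, p and FDR, made with edgeR 3.40.2) and peak list were not used. RPKM times width gave whole reads for 100% of peaks (tolerance 0.01 reads). The study text gives 3 replicates per age, and 2 were analysed here at P4 and at P10.

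log2(RPKM + 1) of all peaks was fitted in R 4.3.3 with limma 3.58.1 (variance trend, 1 mean per age, no filter, no block), and p-values were adjusted by Benjamini-Hochberg over all peaks. The threshold was 0.01, and the floor was 3 reads per library. The code was tested on simulated data. Read ratios carry exact 95% intervals.

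Named genes were a fixed list, the 10 called genes with the largest rise, those called lower and the 5 lowest at P28 against P4, the 5 largest called rises and all called lower at P10 against P4, the 3 highest and 3 lowest at P28 against P10, and the highest level at P28. Members and lists were chosen with earlier results of these data known. Alternatives were other pseudocounts, scalings, library weights, voom, a filter on level, the replicate block, another choice of promoter peak, a threshold of 0.05 and leaving out each library. Python 3.11.15, pandas 2.3.3, numpy 2.4.6 and matplotlib 3.10.9 were used.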

Additional observations from a re-analysis of the deposited data

How the results depend on the processing

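The direction of the median change from P4 to P28 held under every setting tried, while its size and the number of calls moved with the scaling and the number of libraries. The share of all genes called under each setting is not given, so the counts describe the settings only. For P28 against P4, the 31 calls became 51 with estimated library weights, 18 with median centring, 8 with scaling to reads in peaks, 51 at a threshold of 0.05 and 6 to 47 with 1 library left out. For P10 against P4, the 9 calls became 3 with weights, 5 with quantile normalization, 5 with scaling to reads in peaks, 17 at 0.05 and 2 to 13 with 1 library left out. For P28 against P10, the count of 0 became 1 with median centring, 3 with a pseudocount of 5, 4 with voom, 17 at 0.05 and 0 to 18 with 1 library left out. Over the 3 ages, the 25 calls became 45 with weights, 16 with a pseudocount of 0.1, 14 with quantile normalization, 9 with scaling to reads in peaks, 39 with voom, 48 at 0.05 and 2 to 50 with 1 library left out. Of the related genes, the 29 calls became 61 with weights, 19 with quantile normalization, 7 with scaling to reads in peaks, 56 with voom, 58 at 0.05 and 14 to 62 with 1 library left out.

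The median change at P28 against P4, 1.36 as given, was 0.84 with median centring, 1.96 and 0.66 with pseudocounts of 0.1 and 5, 0.83 with quantile normalization, 0.35 with scaling to reads in peaks, 1.77 with voom and 1.08 with the P4 floor, and 1.32 to 1.48 with 1 library left out. The median at P10 against P4, 0.57 as given, was 0.32 with centring, 0.76 and 0.22 with pseudocounts of 0.1 and 5, 0.23 with quantile normalization, -0.34 with scaling to reads in peaks, 0.99 with voom and 0.47 to 0.72 with 1 library left out. The median at P28 against P10, 0.80 as given, was 0.52 with centring, 1.21 and 0.43 with those pseudocounts, 0.53 with quantile normalization and 0.72 to 0.97 with 1 library left out. The median of all genes at P28 against P4 fell from 1.34 to 0.82, 0.70 and 0.30 under centring, quantile normalization and scaling to reads in peaks.

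Among the 38 genes covered by the naming rule (sign changes of the other members were not tabulated), the P28 against P4 change turned sign under quantile normalization for Rab1a (-0.47), Rab28 (-0.29), Rab2a (-0.29), Rab5a (-0.31), Rab5b (-0.036), Rabgap1l (-0.62) and Vps35 (-1.07). It turned under scaling to reads in peaks for Rab1a (-0.19), Rab28 (-0.11), Rab2a (-0.51), Rab5a (-0.75), Rab5b (-0.34), Rab7 (-0.19), Rab8a (-0.10), Rabgap1l (-1.0) and Vps35 (-1.08), and under median centring for Rab5a (-0.082), Rabgap1l (-0.31) and Vps35 (-0.25). With 1 library left out it ranged from -0.85 (without P4 replicate 1) to 0.14 (without P4 replicate 2) for Rab27b, and without P4 replicate 2 it was -0.0090 for Rabgap1l. The cause was not tested. Same-numbered libraries did not deviate together (correlations from -0.001 to 0.047). The median peak held 1 or 2 reads in each P4 and P10 library, so counting error could hide a pairing. Whether the numbers pair the libraries stays undecided. With the replicate number as a block there were 13 calls at P28 against P4, 5 at P10 against P4, 14 over the 3 ages and 22 among the related genes, with a median change of 1.32 at P28 against P4. Depth limits the P4 and P10 levels of the genes at the floor, and the study design leaves batch 2 as 1 library of P28.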
